A study of Mus musculus with 17 samples.

Results

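The genes described here are 10 members of the mouse Hippo pathway: the scaffold genes Sav1, Wwc1 and Wwc2, the kinase genes Stk3, Stk4, Lats1 and Lats2, the effector genes Yap1 and Wwtr1, and the transcription factor gene Tead1. They were taken by gene symbol from a table of read counts for 55414 genes, and all 10 symbols were found once and passed the filter on low counts. The set was drawn up because Sav1 and Wwc1 differed between genotypes in these same libraries. The members were thus chosen by their counts in the knockout and wild-type libraries, and their genotype differences are given as a description, without a test.

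RNA-seq was run on brown adipose tissue (BAT), the heat-producing fat, from C57BL/6J mice. The groups were 5 libraries from Acbp BAd-KO mice on a high-fat diet (HFD), 5 from wild-type mice on HFD, 3 from Acbp BAd-KO mice on chow, and 4 from wild-type mice on chow. Acbp BAd-KO is a conditional deletion of Acbp in brown adipocytes; Acbp appears in the table under the symbol Dbi, and its protein binds acyl-CoA esters. HFD held 45% of calories as fat and was given for 12 weeks, the other mice ate a standard diet, and all were housed at 22 °C. Neither the Cre line nor the ages are known here, and no label calls the libraries separate animals, so the p-values cover only variation among the libraries.

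In the Hippo pathway the kinases MST1 and MST2 (Stk4 and Stk3) work with their scaffold SAV1 to activate LATS1 and LATS2. The LATS kinases phosphorylate YAP (Yap1) and TAZ (Wwtr1), which keeps these coactivators out of the nucleus; when they enter it, they act on genes with TEAD proteins such as TEAD1. WWC1, also called KIBRA, and WWC2 are scaffolds that promote LATS activity. In fat, TAZ is known as a repressor of PPARγ, the main transcription factor of adipocytes.

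The promoters of both genes that set the choice, Sav1 and Wwc1, and of Yap1 and Wwc2, whose levels differed between diets in both genotypes, are printed for their match to the M-CAT hexamer, the core of the sites TEAD proteins bind. Each runs 5′ to 3′ on the gene's own strand, with 250 bases before and 50 after the transcription start, from RefSeq on build GRCm38.p6; all 4 genes lie on the minus strand, at chr12:69986953-69987252, chr11:35980478-35980777, chr9:8004547-8004846 and chr8:47990495-47990794. Capitals mark CATTCC or its reverse complement GGAATG.

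Sav1: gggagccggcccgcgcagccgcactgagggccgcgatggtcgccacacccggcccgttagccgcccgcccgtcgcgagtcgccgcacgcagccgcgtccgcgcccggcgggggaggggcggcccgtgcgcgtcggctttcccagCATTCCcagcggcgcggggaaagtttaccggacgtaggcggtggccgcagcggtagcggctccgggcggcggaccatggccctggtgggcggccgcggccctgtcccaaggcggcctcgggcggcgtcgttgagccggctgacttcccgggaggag
Wwc1: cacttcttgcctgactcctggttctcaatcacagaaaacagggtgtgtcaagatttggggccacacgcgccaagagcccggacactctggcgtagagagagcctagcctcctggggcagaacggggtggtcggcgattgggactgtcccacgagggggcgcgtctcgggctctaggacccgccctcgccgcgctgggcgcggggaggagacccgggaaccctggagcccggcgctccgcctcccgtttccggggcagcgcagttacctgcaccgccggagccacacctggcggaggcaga
Yap1: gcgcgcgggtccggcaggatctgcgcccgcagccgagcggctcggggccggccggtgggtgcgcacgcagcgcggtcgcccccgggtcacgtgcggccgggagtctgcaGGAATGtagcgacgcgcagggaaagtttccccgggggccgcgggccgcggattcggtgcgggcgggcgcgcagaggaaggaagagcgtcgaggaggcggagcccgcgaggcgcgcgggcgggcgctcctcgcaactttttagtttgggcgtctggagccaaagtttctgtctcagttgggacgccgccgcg
Wwc2: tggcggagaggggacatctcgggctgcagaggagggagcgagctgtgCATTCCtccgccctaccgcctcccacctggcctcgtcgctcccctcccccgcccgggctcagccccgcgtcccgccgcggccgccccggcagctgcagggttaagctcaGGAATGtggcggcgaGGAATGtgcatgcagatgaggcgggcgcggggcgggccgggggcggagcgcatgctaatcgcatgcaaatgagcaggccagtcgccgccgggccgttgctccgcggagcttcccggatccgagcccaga

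The Sav1 window held 1 match, which began 106 bases before the start site, and the Yap1 window held 1, which began 141 bases before it. The Wwc2 window held 3, and the Wwc1 window had none. Lats2, whose level also differed between diets in both genotypes, is not printed. Windows were at hand for 8 of the 10 genes, and 5 of these 8 (Sav1, Wwc2, Lats2, Yap1 and Wwtr1) held the hexamer on either strand, against 16.6% of the 27025 genes with windows of 300 bases. The match is a description of these letters and was not tested as a binding site.

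Before the results, some libraries stood apart. Dbi had 126, 121, 111, 165 and 118 CPM (counts divided by the scaled library size in megacounts) in HFD knockout, 701, 690, 658, 795 and 662 CPM in HFD wild-type, 88.3, 100 and 103 CPM in chow knockout, and 1104, 1031, 1003 and 949 CPM in chow wild-type, so every library matched its genotype label. Library totals were 60.2 to 101 megacounts in HFD knockout, 60.0 to 104.9 in HFD wild-type, 47.2 to 49.7 in chow knockout and 39.6 to 43.9 in chow wild-type. Markers of skeletal muscle, 26 genes, summed to 46.6 to 14368 CPM in HFD knockout, 35.2 to 8592 in HFD wild-type, 32.3 to 1914 in chow knockout and 536 to 3292 in chow wild-type. The 4 HFD libraries above 1000 CPM were knockout 2, 4 and 5 and wild-type 1. Markers of hepatocytes, 23 genes, summed to 11.5 to 342 CPM in HFD knockout, 6.26 to 267 in HFD wild-type, 25.0 to 97.8 in chow knockout and 17.7 to 20.1 in chow wild-type, with 7 of them at 0 in all chow wild-type libraries. Brown adipocyte markers, 12 genes, summed to 6350 to 10390 CPM over the libraries. No run of library numbers held both diets, so diet and library run cannot be told apart. On HFD, wild-type 1 to 5 and knockout 1 shared a run, and knockout 2 to 5 formed another. Genotype and run thus largely coincide on HFD, and with the run as a term the genotype difference there rests on knockout 1. On chow, wild-type 1 and 2 formed a run apart from the other chow libraries.

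Sav1 was the scaffold gene whose level set the chow knockout apart. Sav1 (ENSMUSG00000021067.9, chromosome 12) had 48.5, 42.3, 39.6, 44.6 and 45.8 CPM in HFD knockout and 42.2, 41.3, 48.6, 41.9 and 43.1 CPM in HFD wild-type. On chow it had 67.9, 72.4 and 72.6 CPM in the knockout, against 40.9, 43.9, 45.1 and 51.2 CPM in wild-type. The 3 chow knockout libraries lay above every other library, and the remaining 14 shared one range of 39.6 to 51.2 CPM.

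The means of Sav1 were 44.2 ± 3.40 CPM in HFD knockout and 43.4 ± 2.99 CPM in HFD wild-type (SD, n = 5 each), and 71.0 ± 2.67 CPM in chow knockout and 45.3 ± 4.32 CPM in chow wild-type (n = 3 and 4). Knockout over wild-type, the fitted log2 fold change was 0.02 ± 0.07 on HFD and 0.65 ± 0.08 on chow (SE). HFD over chow, it was -0.68 ± 0.08 in the knockout and -0.06 ± 0.07 in wild-type, and the genotype difference on HFD minus that on chow was -0.62 ± 0.11. The genotype differences, which the last value combines, chose the gene. The diet changes use the same libraries, so all these values are given without a test. On chow the difference ran from 0.56 to 0.72 over all alternatives, the low end with the run of library numbers as a term. A stretch of 1336 exonic bases of Sav1, 25.4% of its exon sequence in the GENCODE M21 annotation, overlaps Atl1 on the opposite strand; Atl1 had at most 184 counts in any library, against at least 1453 for Sav1, and the strand setting of the counting is not known here.

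Wwc1 was nearly silent on chow and was detected on HFD, at a lower level in the knockout. Wwc1 (ENSMUSG00000018849.7, chromosome 11) had 0.678, 0.505, 0.217, 0.458 and 0.504 CPM in HFD knockout and 1.58, 1.46, 1.25, 1.11 and 1.14 CPM in HFD wild-type. The counts behind them were 46, 35, 14, 28 and 55 in HFD knockout and 132, 114, 100, 124 and 112 in HFD wild-type. All 5 HFD knockout libraries lay below all 5 HFD wild-type libraries. On chow the counts were 5, 3 and 2 in the knockout and 2, 1, 3 and 0 in wild-type, at or near the floor of 3 counts per library. Wwc1 thus passed the filter on low counts only through its HFD libraries, and its differences between diets are given as a description.

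The HFD means of Wwc1 were 0.472 ± 0.166 CPM in the knockout, against 1.31 ± 0.205 CPM in wild-type (SD, n = 5 each), and the fitted log2 fold change was -1.46 ± 0.32. The ratio of summed counts, each over the summed scaled library sizes, knockout over wild-type on HFD, was 0.371. This ratio belongs to the contrast that chose the gene and is given without an interval. The ratios below carry exact 95% intervals. Between diets the ratio, HFD over chow, was 6.07 in the knockout (3.23 to 12.9) and 30.3 in wild-type (13.8 to 83.0), and knockout over wild-type on chow it was 1.85 (0.610 to 6.201). The intervals cover counting error only, not the spread among libraries, and are not read as tests. The last one spans 1. With the run of library numbers as a term the HFD genotype difference was -0.95 ± 0.58, where the run of the HFD wild-type libraries held 1 knockout library. Without the 4 muscle-rich libraries it was -1.47 ± 0.48, and without each library in turn it lay between -1.63 and -1.28.

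The other WWC scaffold gene was higher on HFD in both genotypes. Wwc2 (ENSMUSG00000031563.9, chromosome 8) had 76.9, 79.7, 83.2, 74.7 and 66.2 CPM in HFD knockout and 74.0, 76.0, 74.6, 81.5 and 77.0 CPM in HFD wild-type, against 55.7, 56.6 and 52.2 CPM in chow knockout and 55.9, 60.8, 61.0 and 53.4 CPM in chow wild-type. Every HFD library lay above every chow library. Wwc2 rose on HFD in the knockout (log2 fold change 0.47 ± 0.07, edgeR adjusted p = 0.000236) and in wild-type (0.41 ± 0.06, adjusted p = 0.000234). Knockout over wild-type, its log2 fold change was -0.01 ± 0.06 on HFD and -0.08 ± 0.07 on chow.

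**Figure D1:**
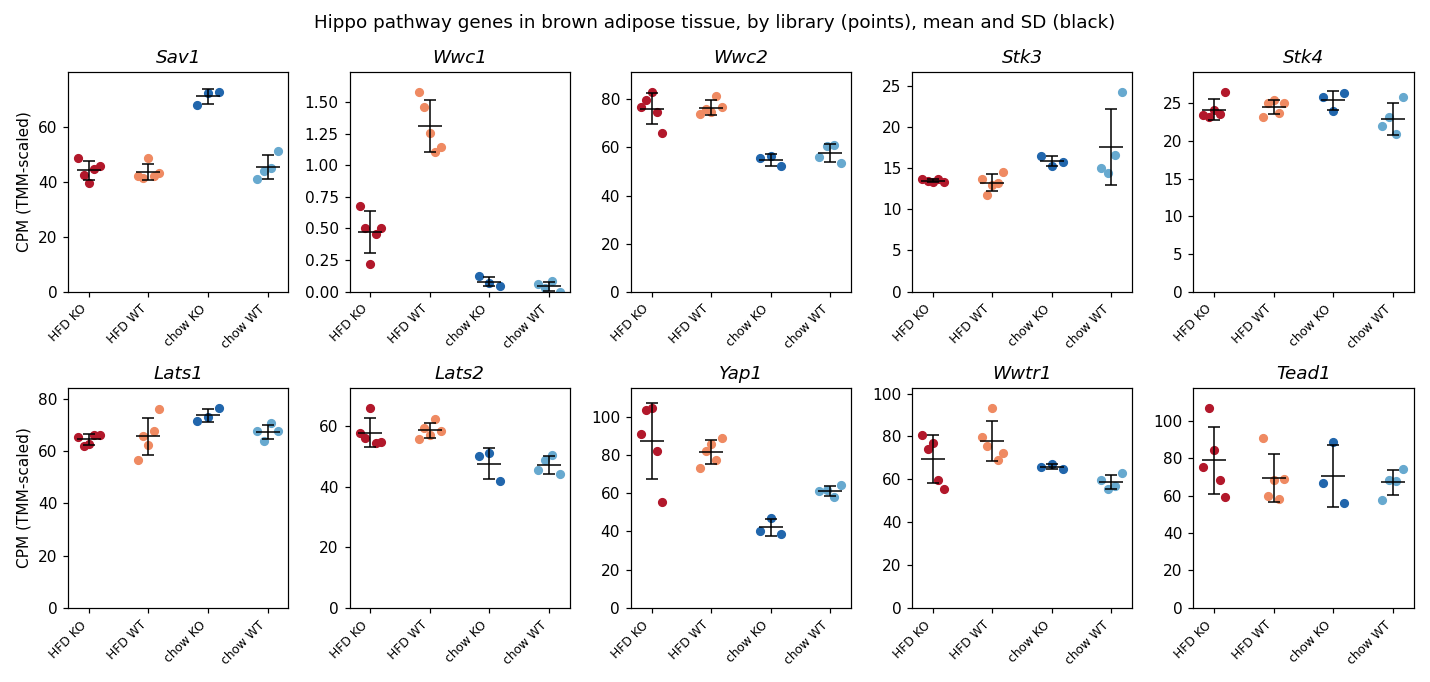
Level of each of the 10 Hippo pathway genes in CPM (vertical axes start at 0) in HFD knockout, HFD wild-type, chow knockout and chow wild-type BAT; points are libraries and black bars give mean and SD. Sav1 stands at 67.9 to 72.6 CPM in the 3 chow knockout libraries and at 39.6 to 51.2 CPM in the other 14, and Wwc1 is highest in HFD wild-type at 1.11 to 1.58 CPM.

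Of the MST kinase genes, Stk3 was lower on HFD in wild-type and Stk4 did not pass the test for diet. Stk3 (ENSMUSG00000022329.16, chromosome 15), which encodes MST2, had 13.7, 13.5, 13.3, 13.7 and 13.3 CPM in HFD knockout and 13.6, 11.7, 12.97, 13.2 and 14.5 CPM in HFD wild-type. On chow it had 16.5, 15.3 and 15.8 CPM in the knockout, against 15.0, 14.4, 16.6 and 24.2 CPM in wild-type. The last of these, wild-type 4, was the highest of all 17 libraries, and the wild-type groups of the diets overlapped at 14.4 to 14.5 CPM. Stk3 fell on HFD in wild-type (log2 fold change -0.41 ± 0.12, adjusted p = 0.0125), and its change in the knockout was -0.23 ± 0.13 (adjusted p = 0.186). With the 2 wild-type groups fitted alone the adjusted p was 0.0602, and without chow wild-type 4 the change was -0.22.

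Stk4 (ENSMUSG00000018209.16, chromosome 2), which encodes MST1, had 23.4, 23.1, 24.1, 23.6 and 26.5 CPM in HFD knockout, 23.2, 25.0, 25.4, 23.7 and 25.0 CPM in HFD wild-type, 25.8, 24.0 and 26.4 CPM in chow knockout, and 21.9, 23.2, 20.9 and 25.8 CPM in chow wild-type. The 4 groups overlapped. HFD over chow, its log2 fold change was -0.07 ± 0.07 in the knockout (adjusted p = 0.460) and 0.09 ± 0.06 in wild-type (adjusted p = 0.285).

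Of the LATS kinase genes, Lats2 was higher on HFD in both genotypes and Lats1 did not pass the test for diet. Lats2 (ENSMUSG00000021959.17, chromosome 14) had 57.7, 56.1, 66.0, 54.6 and 54.9 CPM in HFD knockout and 55.9, 59.4, 57.0, 62.5 and 58.4 CPM in HFD wild-type, against 50.2, 51.0 and 41.8 CPM in chow knockout and 45.4, 48.8, 50.6 and 44.1 CPM in chow wild-type. All HFD libraries were above all chow libraries. It rose on HFD in the knockout (log2 fold change 0.28 ± 0.08, adjusted p = 0.0156) and in wild-type (0.31 ± 0.07, adjusted p = 0.00371); without chow knockout 4 the first was 0.19 (adjusted p = 0.105). A predicted gene, Gm49361, shares 2955 exonic bases with Lats2 on the same strand, and had at most 61 counts in any library.

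Lats1 (ENSMUSG00000040021.14, chromosome 10) had 65.4, 61.9, 62.8, 66.1 and 66.3 CPM in HFD knockout, 56.6, 65.9, 62.5, 67.6 and 76.0 CPM in HFD wild-type, 71.4, 73.0 and 76.5 CPM in chow knockout and 67.7, 64.1, 70.6 and 67.6 CPM in chow wild-type. The HFD and chow knockout groups did not overlap, and the wild-type groups did. Its log2 fold change, HFD over chow, was -0.19 ± 0.07 in the knockout (adjusted p = 0.0632) and -0.04 ± 0.07 in wild-type (adjusted p = 0.710). Without the 3 liver-rich HFD libraries (hepatocyte sum over 200 CPM: knockout 4 and 5 and wild-type 5) the change in the knockout was -0.22 (adjusted p = 0.0390). It also passed with the knockout groups fitted alone (-0.19, adjusted p = 0.0248) and without HFD wild-type 1 or 5 (adjusted p = 0.0364 and 0.0294), and under library totals it was 0.07 and did not pass.

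Yap1, the gene of the coactivator YAP, had its lowest levels in chow knockout and its highest in HFD knockout. Yap1 (ENSMUSG00000053110.14, chromosome 9) had 91.0, 103, 104, 82.2 and 55.3 CPM in HFD knockout and 73.4, 82.0, 85.8, 77.3 and 89.1 CPM in HFD wild-type. On chow it had 40.4, 47.2 and 38.8 CPM in the knockout, against 61.1, 61.8, 57.7 and 64.3 CPM in wild-type. The chow groups did not overlap, and HFD knockout 5, with 55.3 CPM, lay below every HFD wild-type and every chow wild-type library.

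Yap1 rose on HFD in the knockout (log2 fold change 1.05 ± 0.15, adjusted p = 0.000196) and in wild-type (0.41 ± 0.14, adjusted p = 0.0305). The wild-type call ended without chow wild-type 1, 2 or 3 (adjusted p = 0.0587, 0.0601 and 0.0778), without HFD wild-type 3 or 5 (0.0597 and 0.0629) and with muscle and liver scores as covariates (0.0650); the change stayed between 0.36 and 0.45 in these and the other alternatives, apart from 0.89 under library totals. Knockout over wild-type, it differed by 0.10 ± 0.13 on HFD and -0.54 ± 0.16 on chow. The difference between these, 0.64 ± 0.20, did not pass (interaction, adjusted p = 0.269). It passed at 0.77 without HFD knockout 5 (adjusted p = 0.0289) and at 0.87 without the 3 liver-rich HFD libraries (adjusted p = 0.0270), and not without the 4 muscle-rich ones (0.76, adjusted p = 0.0876). Under library totals it was 0.42 (adjusted p = 0.301), and over the remaining alternatives it lay between 0.57 and 0.74 without passing. HFD knockout 5 had the highest hepatocyte sum of all libraries, 342 CPM, and a muscle sum of 3348 CPM; their part in its Yap1 level was not tested.

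Wwtr1, the gene of TAZ, was higher on HFD in wild-type. Wwtr1 (ENSMUSG00000027803.15, chromosome 3) had 80.8, 74.3, 77.0, 59.8 and 55.4 CPM in HFD knockout and 79.9, 75.5, 93.3, 69.1 and 72.3 CPM in HFD wild-type, against 65.6, 67.2 and 65.0 CPM in chow knockout and 59.6, 55.6, 56.9 and 63.0 CPM in chow wild-type. Each HFD wild-type library was above each chow wild-type library, and HFD knockout straddled chow knockout. It rose on HFD in wild-type (log2 fold change 0.41 ± 0.11, adjusted p = 0.00813), and its change in the knockout was 0.08 ± 0.12 (adjusted p = 0.665). The interaction was -0.33 ± 0.16 (adjusted p = 0.480), so the diet effects are not shown to differ. Libraries 4 and 5 of the HFD knockout, the lowest for Wwtr1, were also 2 of the 3 liver-rich ones; without the 3, the change in the knockout was 0.23 (adjusted p = 0.0803).

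Tead1, the gene of a TEAD partner of YAP and TAZ, did not pass the test for diet. Tead1 (ENSMUSG00000055320.19, chromosome 7) had 75.3, 107, 84.4, 68.6 and 59.5 CPM in HFD knockout, 90.7, 59.9, 68.6, 58.4 and 68.8 CPM in HFD wild-type, 66.7, 88.7 and 55.8 CPM in chow knockout and 57.8, 68.5, 68.0 and 74.3 CPM in chow wild-type. The 4 groups overlapped. HFD over chow, its log2 fold change was 0.16 ± 0.18 in the knockout (adjusted p = 0.538) and 0.05 ± 0.17 in wild-type (adjusted p = 0.864). The library with the most muscle RNA in each HFD group was also the highest for Tead1 in that group. These were knockout 2, with a muscle sum of 14368 CPM, and wild-type 1, with 8592 CPM. Chow knockout 3, at 88.7 CPM of Tead1, had a muscle sum of 32.3 CPM. The part of muscle RNA in these levels was not tested.

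Counted together, 0 of the 10 genes were called higher and 1 lower in the HFD knockout, and 1 higher and 0 lower in the chow knockout, at an adjusted p of 0.05 or less. Over all genes 0.31% were called up and 0.226% down on HFD, and 0.519% up and 0.536% down on chow. These are the contrasts that chose the set, and nothing is read from the shares. The HFD call, that of Wwc1, held in 4 of 28 alternatives. It was lost in 14 of the 17 fits that left out 1 library. It was also absent in 10 others, among them the HFD groups fitted alone and the run term. Those 10 include the filter at a mean of at least 1 CPM, under which Wwc1 was not tested. Averaged over diets the gene called at an adjusted p of 0.05 or less was Sav1, which chose the set. There 2.86% of all genes were called and 1.32% called up. The log2 fold change of Sav1, 0.34, no longer passed under library totals, with the run term or without the muscle-rich libraries. The groups of 1 member did not overlap on HFD, where the share is 3.6% of all genes, and those of 4 members (Sav1, Lats1, Yap1 and Wwtr1) did not on chow, where it is 12.8%.

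The diet contrasts of the 8 members other than Sav1 and Wwc1 were tested, although the set as a whole was drawn up with results of these libraries known. In the knockout 3 of these 8 rose (Wwc2, Lats2 and Yap1) and 0 fell, against 12.8% up and 13.1% down among all genes, and the groups of 5 did not overlap, against 31.6% of all genes. In wild-type 4 rose (Wwc2, Lats2, Yap1 and Wwtr1) and 1 fell (Stk3), against 16.9% up and 15.2% down among all genes, and the groups of 4 did not overlap, against 24.8%. Over the 8, the median log2 fold change was 0.12 in the knockout and 0.20 in wild-type, and over all genes it was 0.03 in the knockout and 0.02 in wild-type. None of the 8 passed for the interaction, where 0.0903% of all genes did, 0.0452% in each direction (edgeR). Of the 8, 2 (Yap1 and Wwtr1) had an unadjusted p under 0.05, as did 10.4% of all genes.

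These diet changes depend on scaling, because the scaling factors were 1.02 to 1.33 on HFD and 0.795 to 0.916 on chow. Scaling by library totals moved the median of all genes by 0.27 in the knockout and 0.48 in wild-type on the log2 scale. Relative to that median, wild-type Stk3 stood at -0.42 and Yap1 at 0.40 under library totals, against -0.43 and 0.39 with the scaling used throughout, although the unadjusted sign of Stk3 turned to 0.08. Knockout Yap1 stood at 1.01 under library totals and 1.02 otherwise.

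**Figure D2:**
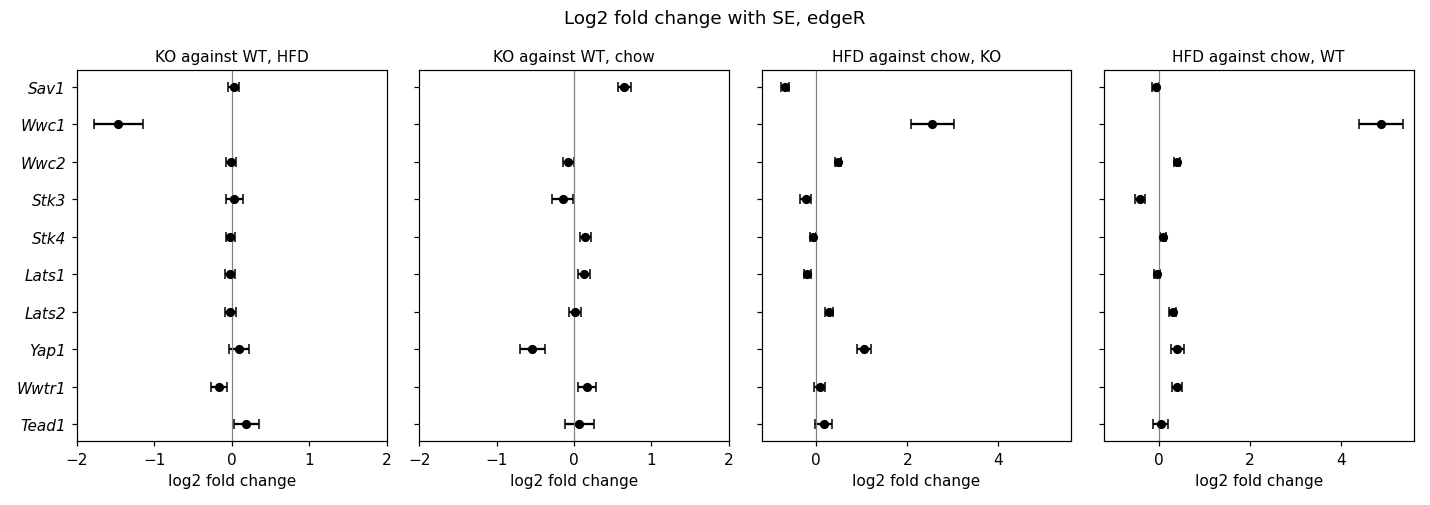
Log2 fold changes (horizontal axes) with SE for knockout against wild-type on HFD and on chow, and for HFD against chow in knockout and wild-type. Sav1 departs from 0 on chow (0.65) and in the knockout diet contrast (-0.68), Yap1 reaches 1.05 in the knockout diet contrast, Wwc1 is left out on chow, and its diet values rest on 0 to 5 counts per chow library.

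Levels per kilobase of exon sequence allow a rough comparison between genes. The length is the exon union of all annotated isoforms, from 4779 bases for Wwtr1 to 13784 for Wwc2. It may differ from the length of the transcripts present, which was not measured. On this scale Wwtr1 was the highest member in all 4 groups. It stood at 14.5 ± 2.34 CPM per kb in HFD knockout, 16.3 ± 1.97 in HFD wild-type, 13.8 ± 0.239 in chow knockout and 12.3 ± 0.686 in chow wild-type. In chow knockout Sav1 came next at 13.5 ± 0.506 CPM per kb, and its libraries (12.9 to 13.8) overlapped those of Wwtr1 (13.6 to 14.1). Sav1 stood lower in the order in HFD knockout, at 8.39 ± 0.646, in HFD wild-type, at 8.24 ± 0.569, and in chow wild-type, at 8.60 ± 0.820 CPM per kb. In both HFD groups the libraries of Lats1, Sav1, Lats2 and Yap1 overlapped, so their order there is not resolved.

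Yap1 stood at 9.43 ± 2.17 CPM per kb in HFD knockout, 8.81 ± 0.684 in HFD wild-type, 4.55 ± 0.485 in chow knockout and 6.62 ± 0.294 in chow wild-type, which put it between the second and the sixth place. Stk3 was the ninth in each group, at 2.16 to 2.87 CPM per kb. Wwc1 was the lowest, at 0.0952 ± 0.0334 CPM per kb in HFD knockout and 0.264 ± 0.0414 in HFD wild-type, far under the 5.52 ± 0.463 and 5.56 ± 0.215 CPM per kb of Wwc2 in the same groups.

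**Figure D3:**
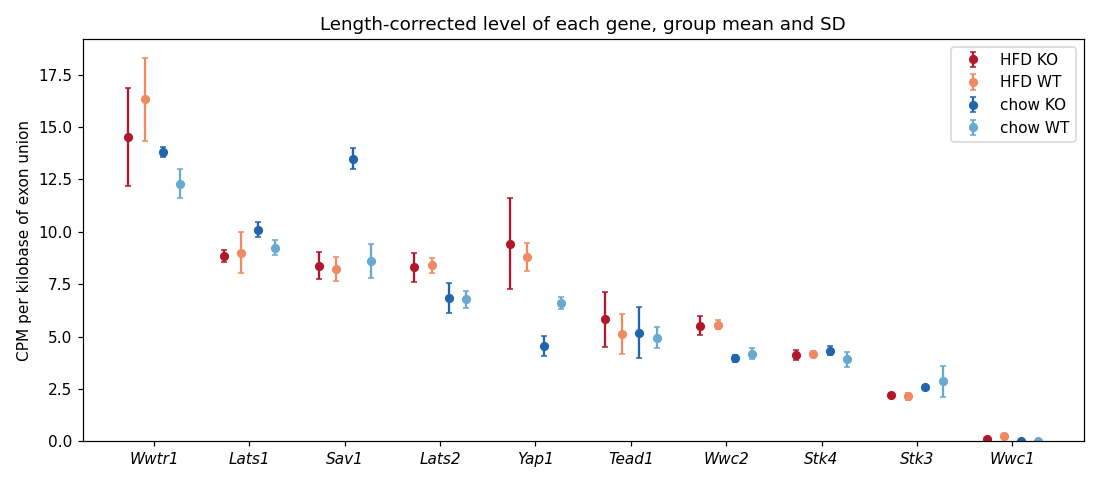
Mean level and SD of each gene in CPM per kilobase of exon sequence (vertical axis) in HFD knockout, HFD wild-type, chow knockout and chow wild-type, with genes ordered by level. Wwtr1 is the highest in each group (12.3 to 16.3) and Wwc1 the lowest, and Sav1 is near 8 in 3 groups and 13.5 in chow knockout.

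The genes with profiles nearest to Sav1 over the 17 libraries were Zfp84, Tmem164, Pi4k2b, Cmtm6 and Lclat1, with a root mean square difference of 0.132 to 0.135 in centred log2 CPM. Zfp84, a zinc finger gene, averaged 10.8 CPM in HFD knockout, 11.3 in HFD wild-type, 15.9 in chow knockout and 11.8 in chow wild-type. Cmtm6, whose product maintains PD-L1 at the cell surface, averaged 28.8 CPM in HFD knockout, 31.0 in HFD wild-type, 49.8 in chow knockout and 34.6 in chow wild-type. Each of the 5 had its highest mean in chow knockout, which follows from their choice by likeness to Sav1.

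Profiles near that of Wwc1 were much less close, at 0.746 for Nup210, 0.780 for Cdh9 and 0.784 for Cyp4f39. Nup210, which encodes a nuclear pore membrane protein, averaged 6.36 CPM in HFD knockout, 10.03 in HFD wild-type, 1.05 in chow knockout and 1.297 in chow wild-type. Cdh9, a cadherin gene, averaged 2.06 CPM in HFD knockout, 3.65 in HFD wild-type, 0.222 in chow knockout and 0.358 in chow wild-type. These 3 genes had higher means on HFD than on chow in both genotypes, a likeness to Wwc1 for which they were picked.

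Other genes of the pathway comprised 57 symbols for MOB, VGLL and TEAD partners, upstream regulators, and the STRIPAK phosphatase complex that acts on MST kinases; 56 were tested, and Vgll1, with at most 2 counts, was not. For genotype on HFD 0 of 56 were called by edgeR, with 0.536% of all genes called, and 4 by DESeq2, with 3.32% of all genes; 8 had an unadjusted p under 0.05, as did 12.7% of all genes. On chow 1 rose, Map4k4, a kinase that can activate LATS independently of MST, and 0 fell, with 1.06% of all genes called. Map4k4 had 119, 122 and 121 CPM in chow knockout and 85.9, 87.6, 95.7 and 102 CPM in chow wild-type, groups that did not overlap (log2 fold change 0.38 ± 0.08, adjusted p = 0.0341). That call was lost in 10 of 28 alternatives, among them those without chow wild-type 1 or 2 or any of the 3 chow knockout libraries, and the change lay between 0.29 and 0.45 throughout.

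Diet called more of these pathway genes. In the knockout 10 of 56 rose and 9 fell on HFD, with 25.8% of all genes called, and in wild-type 17 rose and 10 fell, with 32.1% of all genes called. Rassf1, which encodes a scaffold that binds MST kinases, rose on HFD in the knockout (log2 fold change 0.86 ± 0.11, adjusted p = 6.17e-05) and in wild-type (0.99 ± 0.10, adjusted p = 5.18e-06). In both genotypes its HFD libraries lay above its chow libraries.

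Vgll4 and Stk38 fell on HFD in both genotypes. Vgll4, which encodes a TEAD cofactor that competes with YAP, had 52.2, 47.8, 55.6, 66.4 and 78.9 CPM in HFD knockout against 116, 129 and 122 CPM in chow knockout (-1.02 ± 0.17, adjusted p = 0.000649), and changed by -0.51 ± 0.16 in wild-type (adjusted p = 0.0254). The NDR kinase gene Stk38 changed by -0.35 ± 0.07 in the knockout (adjusted p = 0.00115) and by -0.21 ± 0.06 in wild-type (adjusted p = 0.0138). Map4k3 fell in the knockout (-0.36 ± 0.07, adjusted p = 0.00105), and its wild-type value was -0.16 ± 0.06 (adjusted p = 0.0543). Under library totals the knockout values of Map4k3 and Stk38 were at -0.09 each and were not called. The wild-type changes of Vgll4 and Stk38 were not refitted under library totals, where the median of all genes lies 0.48 higher.

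Dchs1, which encodes a cadherin that acts upstream of the pathway, rose on HFD in the knockout (0.97 ± 0.18, adjusted p = 0.00135) and in wild-type, where it averaged 14.2 ± 2.07 CPM on HFD and 5.17 ± 1.15 CPM on chow (1.45 ± 0.17, adjusted p = 1.70e-05). Rassf6 fell in the knockout (-0.84 ± 0.26, adjusted p = 0.0255) and in wild-type, where it averaged 2.14 ± 0.552 CPM on HFD and 6.84 ± 0.869 CPM on chow (-1.67 ± 0.24, adjusted p = 0.000115). Strn4, a STRIPAK subunit gene, changed by 0.01 ± 0.05 in the knockout (adjusted p = 0.894) and rose by 0.30 ± 0.04 in wild-type (adjusted p = 0.000119). Under library totals the knockout split moved to 26 higher and 2 lower, with 5322 higher and 553 lower among all genes, and the wild-type split to 44 higher and 1 lower, with 10497 higher and 426 lower among all genes.

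YAP and TAZ targets were followed with 21 genes of a published signature derived in human tumours, of which 19 were tested. Lats2, also in that signature, was left out because it is a member, and its diet values are given above. Of the genes kept, 2, Amotl2 and Ptpn14, are also pathway genes. Between genotypes 0 of 19 were called by edgeR on HFD and 0 on chow, with 0.536% and 1.06% of all genes called. On HFD 8 had an unadjusted p under 0.05, as did 12.7% of all genes, and DESeq2 called 2, with 3.32% of all genes. On chow 8 had an unadjusted p under 0.05, as did 15.2% of all genes, and DESeq2 called 1, with 3.43% of all genes. Lower values were more common than higher ones, with 16 of 19 below 0 on HFD (median log2 fold change -0.31) and 13 on chow (median -0.13), against medians over all genes of 0.00 on HFD and -0.01 on chow. Endothelial markers were lower in 10 of 10 cases on HFD too, with sums of 474 to 586 CPM in the knockout, against 580 to 669 CPM in wild-type. In the same contrast mural cell markers were lower in 6 of 6 cases, with sums of 473 to 541 CPM in the knockout and 550 to 616 CPM in wild-type, and macrophage markers in 9 of 10. Hepatocyte markers went the other way there, higher in 23 of 23 cases, as did muscle markers in 22 of 26 and brown adipocyte markers in 10 of 12. On chow, endothelial markers were higher in 3 of 10 cases, mural cell markers in 1 of 6 and macrophage markers in 4 of 10. Muscle markers were higher on chow in 0 of 26 cases and hepatocyte markers in 23 of 23. The part of these cell types was not tested. In bulk tissue, fewer cells of a type and less RNA per cell cannot be told apart. Genotype and run of library numbers largely coincide on HFD, and the part of the run in the target and marker values there was not tested.

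Averaged over both diets, 3 of the 19 targets fell in the knockout and 0 rose, where 1.54% of all genes were called down. Amotl2, which encodes an angiomotin that binds YAP, had 81.8, 63.0, 77.3, 54.8 and 46.1 CPM in HFD knockout against 140, 118, 116, 78.7 and 85.4 CPM in HFD wild-type. On chow it had 35.5, 32.3 and 29.1 CPM in the knockout against 49.3, 63.7, 51.0 and 59.2 CPM in wild-type. The chow groups did not overlap and the HFD groups did at 78.7 to 81.8 CPM (averaged log2 fold change -0.76 ± 0.13, adjusted p = 0.0115). This call was lost without the 4 muscle-rich HFD libraries (-0.56, adjusted p = 0.0844), with the run of library numbers as a term and with muscle and liver scores as covariates.

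Ccn1, a secreted matrix protein gene, had 10.9, 10.8, 17.5, 10.8 and 8.82 CPM in HFD knockout against 69.7, 31.3, 18.6, 14.9 and 17.6 CPM in HFD wild-type; the chow values were 5.36, 5.56 and 5.73 CPM in chow knockout against 5.41, 12.96, 11.8 and 25.8 CPM in chow wild-type. Most of the spread lay in the wild-type groups. Its averaged change was -1.35 ± 0.34 (adjusted p = 0.0419) and lost its call in 15 of 27 alternatives. Fjx1 changed by -0.67 ± 0.17 (adjusted p = 0.0470) and lost its call in 20 of 27. Its counts were low on chow, 7 to 14 per knockout library and 13 to 19 per wild-type library.

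Across diets 8 of the 19 targets rose and 4 fell in the knockout, where 25.8% of all genes were called, and 10 rose and 2 fell in wild-type, where 32.1% were. Fjx1, whose product inhibits dendrite extension in the mouse, averaged 1.47 ± 0.380 CPM in HFD knockout against 0.246 ± 0.0917 CPM in chow knockout (2.57 ± 0.27, adjusted p = 1.27e-05). It averaged 2.13 ± 0.217 CPM in HFD wild-type against 0.433 ± 0.0699 CPM in chow wild-type (2.29 ± 0.23, adjusted p = 5.18e-06). Both changes of Fjx1 rest on the low chow counts given above. Crim1 rose in the knockout (0.78 ± 0.09, adjusted p = 3.52e-05) and in wild-type (0.75 ± 0.08, adjusted p = 1.20e-05).

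Amotl2 rose on HFD in the knockout, with means of 64.6 ± 15.0 CPM on HFD and 32.3 ± 3.20 CPM on chow (adjusted p = 0.00198). It also rose in wild-type (0.95 ± 0.18, adjusted p = 0.000939). The kinase gene Nuak2 rose in the knockout (1.11 ± 0.23, adjusted p = 0.00243) and in wild-type (1.86 ± 0.22, adjusted p = 1.58e-05). Its chow counts were low too, 24 to 33 per knockout library and 14 to 22 per wild-type library. Ccn2, a matrix gene and a widely used readout of YAP, rose in the knockout (0.76 ± 0.26, adjusted p = 0.0391) and in wild-type (1.54 ± 0.24, adjusted p = 0.000213). Nt5e, the gene of the ectonucleotidase CD73, fell in the knockout (-1.98 ± 0.29, adjusted p = 0.000171) and in wild-type (-1.46 ± 0.27, adjusted p = 0.000791). The other targets that fell, named after their values were seen, were Ptpn14, F3 and Igfbp3 in the knockout and Igfbp3 in wild-type. Without chow knockout 2 or 3, 7 targets were called in the knockout. Macrophage markers rose on HFD as well, 7 of 10 in the knockout and 9 of 10 in wild-type, with sums of 95.3 to 220 CPM in HFD knockout, 118 to 272 in HFD wild-type, 68.1 to 95.1 in chow knockout and 75.5 to 84.2 in chow wild-type. Endothelial markers were called up for 3 of 10 in the knockout and 6 of 10 in wild-type, hepatocyte markers for 0 of 23 in the knockout and 18 of 23 in wild-type, and fibroblast markers for 2 of 8 in each; the part of these cell types was not tested. For the interaction 0 of 56 pathway genes and 0 of 19 targets passed (edgeR), with 0.0903% of all genes called. An unadjusted p under 0.05 was found for 10 pathway genes and 4 targets and for 10.4% of all genes, and DESeq2 called 2 pathway genes and 0 targets, with 1.11% of all genes.

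**Figure D4:**
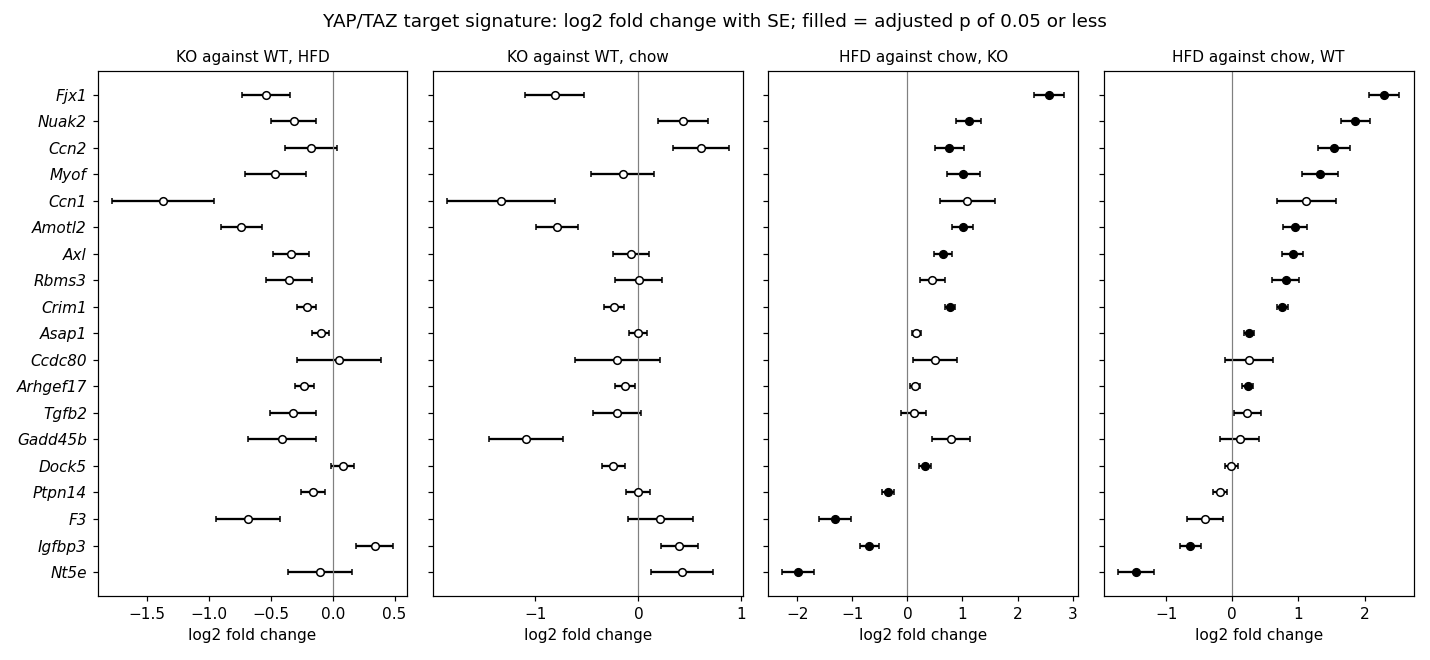
Log2 fold changes (horizontal axes) with SE of the 19 YAP and TAZ target genes for knockout against wild-type on HFD and on chow, and for HFD against chow in knockout and wild-type; filled points have an adjusted p of 0.05 or less. No point is filled between genotypes, 16 of 19 lie below 0 on HFD and 13 on chow, and 12 points are filled in each diet panel.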

How the data were processed

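RNA-seq of brown adipose tissue was deposited as whole-number counts per gene for 17 libraries. Per the submitters' processing notes, the authors used FastQC, STAR 2.7.8a, RSEM 1.3.0 and DESeq with build GRCm39; the sources used here do not say what each did, nor the strand setting. RSEM estimates can split reads among similar genes, so the deposited counts may be rounded estimates. Of the 55414 genes, 25996 had 0 counts in every library.

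From these counts, edgeR 4.0.16 (R 4.3.3, limma 3.58.1) was run with TMM scaling, and 17717 genes passed filterByExpr. A quasi-likelihood F test was fitted over all 17 libraries, with p-values adjusted by Benjamini-Hochberg over all genes tested and called at 0.05 or less. DESeq2 1.42.0 was an alternative. CPM are TMM-scaled, and levels per kb use GENCODE M21 exon unions. Exact 95% intervals and the floor of 3 counts cover counting error only. The test was tried on simulated data first.

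The members and gene lists were chosen with earlier results of these data known. Named genes are the 10 members, Dbi, up to 4 called genes per list and comparison with the smallest adjusted p, and the 5 nearest profiles of Sav1 and of Wwc1, leaving out predicted genes. Of the profiles nearest to Wwc1, 2 are not reported here. Nearness is the root mean square difference of centred log2 CPM (prior count 2). Marker lists covered brown adipocytes, skeletal muscle, hepatocytes, macrophages, endothelium, fibroblasts, mural cells, Schwann cells, epithelium and lymphocytes. Muscle-rich HFD libraries had a muscle sum over 1000 CPM and liver-rich ones a hepatocyte sum over 200 CPM. Alternatives covered scaling, filters, tool, libraries left out, a replicate block, library run, and muscle and liver scores. Libraries with the same replicate number did not deviate together, so the numbers were not taken to pair samples.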

Additional observations from a re-analysis of the deposited data

Results flagged for a closer look

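A single library stood far from the rest of its group in 5 of 78 groups tested, and chance gives about 1 in 20. Sav1 was 48.6 CPM in HFD wild-type 3, against 41.3 to 43.1 CPM in the other 4. Stk4 was 26.5 CPM in HFD knockout 5, against 23.1 to 24.1 CPM in the others. Lats2 was 66.0 CPM in HFD knockout 3, against 54.6 to 57.7 CPM in the others. Dbi was 165 CPM in HFD knockout 4, against 111 to 126 CPM in the others. Ccn1 was 17.5 CPM in HFD knockout 3, against 8.82 to 10.9 CPM in the others.

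The genotype difference of Sav1 on HFD minus that on chow was -0.62 on the log2 scale; this value belongs to the contrasts that chose the gene. Wwc1 knockout libraries lay below the wild-type mean on HFD and above it on chow, with a difference of -2.33 that rests on 0 to 5 counts per chow library. Stk3 knockout libraries lay above the wild-type mean on HFD and below it on chow, a difference of 0.18 that did not pass the interaction test (edgeR adjusted p = 0.756).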

How the results depend on the processing

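Of 2680 recomputed values, 2470 were labelled the same, 58 lost the call, 10 gained it, 22 changed sign and 120 moved. For tested values, the same means that direction and side of the threshold were kept. Counts were labelled the same when equal or close to the main count. Values given without a test were labelled the same when they shifted by less than the SD among libraries within groups. Sign changes near 0 and lost calls of these untested values are therefore not in the 22 and the 58. Under library totals the log2 change on HFD became 0.033 for Stk3, 0.19 for Stk4 and 0.073 for Lats1 in the knockout, and 0.076 for Stk3 and 0.44 for Lats1 in wild-type; the interaction became -0.14 for Wwc2, -0.043 for Stk3 and -0.11 for Tead1. Without the muscle-rich libraries the wild-type diet change was 0.018 for Lats1 and -0.065 for Tead1, and the Lats2 interaction was 0.041; that interaction was 0.024 without the liver-rich libraries and 0.049 with muscle and liver scores, where the Tead1 interaction was -0.0017. Leaving out each library in turn gave a wild-type diet change of -0.10 to 0.012 for Lats1 and -0.070 to 0.10 for Tead1, and an interaction of -0.019 to 0.26 for Stk3, -0.12 to 0.020 for Lats2 and -0.023 to 0.32 for Tead1.

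Members called on chow numbered 2 under DESeq2, with only the groups compared, and without the muscle-rich or liver-rich libraries, against 1 otherwise, and 1 to 2 with each library left out. On HFD 0 were called under DESeq2 size factors, DESeq2, no filter and a mean of at least 1 CPM, a filter that left Wwc1 untested. Likewise 0 were called with only the groups compared, the replicate block, the run term, either set of libraries left out and the covariates. With each library left out 0 to 1 were called (0 in 14 of 17 such fits). Averaged over diets 0 were called under library totals, the run term and without the muscle-rich libraries. For the interaction 0 were called with the replicate block, the run term, the covariates and without the muscle-rich libraries, and 0 to 2 with each library left out (other than 1 in 11 of 17).

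Pathway genes called on chow numbered 0 under library totals, the run term and the covariates, 2 with a mean of at least 1 CPM and without either set of libraries, 3 under DESeq2, and 0 to 2 with each library left out. On HFD they numbered 2 under library totals (2.38% of all genes called), 1 with a mean of at least 1 CPM and 4 under DESeq2 (3.32%). They numbered 1 with the replicate block and 0 to 1 with each library left out. Averaged, they numbered 4 under DESeq2, which called 6.3% of all genes, against 1 and 2.86% in the main fit. They numbered 0 with the run term, the covariates and without the muscle-rich libraries, and 1 to 2 with each library left out. In wild-type 45 were called for diet under library totals, against 27, and DESeq2 called 2 for the interaction.

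Targets called on chow numbered 1 under DESeq2, only the groups compared, the replicate block and without either set of libraries, and 0 to 1 with each library left out. On HFD they numbered 1 under library totals (2.38% of all genes called), 1 with a mean of at least 1 CPM and 2 under DESeq2 (3.32%). They numbered 1 with the replicate block and 0 to 1 with each library left out. Averaged, they numbered 6 under DESeq2, which called 6.3% of all genes, against 3 and 2.86% in the main fit. They numbered 1 with the replicate block, 1 without the liver-rich libraries, and 0 with the run term, the covariates and without the muscle-rich libraries. With each library left out they numbered 1 to 3. For diet in the knockout they numbered 7 to 13 with each library left out, against 12. The cause of these shifts was not tested.

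The correlation of deviations between libraries with the same number was -0.72 to 0.21 over 5 pairs on HFD and -0.15 to -0.08 over 3 pairs on chow, and 0 correlated best with their own number. The replicate block cannot be estimated for diet, because the numbers are nested in it. Depth limits Wwc1 on chow, where 0 to 5 counts per library give ratios with wide counting intervals.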

Other observations

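Markers of the remaining cell types were summed in the same libraries. Fibroblast markers, 8 genes, summed to 423 to 832 CPM in HFD knockout, 338 to 919 CPM in HFD wild-type, 357 to 510 CPM in chow knockout and 336 to 404 CPM in chow wild-type. Mural cell markers, 6 genes, summed to 473 to 541 CPM in HFD knockout and 550 to 616 CPM in HFD wild-type, groups that did not overlap, and had medians of 529 CPM in chow knockout and 560.4 CPM in chow wild-type. Schwann cell markers, 4 genes, summed to 53.2 to 68.9 CPM in HFD knockout, 49.6 to 75.8 CPM in HFD wild-type, 44.0 to 56.9 CPM in chow knockout and 44.9 to 69.6 CPM in chow wild-type. Lymphocyte markers, 6 genes, reached at most 3.03 CPM and epithelial markers, 5 genes, at most 1.01 CPM in any library, both in HFD knockout. Endothelial markers summed to 453 to 487 CPM in chow knockout and 457 to 562 CPM in chow wild-type.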
